A study of Mus musculus with 6 samples.

Results

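The nuclear genes for the subunits of mitochondrial oxidative phosphorylation were followed in RPL10 WT and RPL10 R98S lymphoid cells. They were picked by the letters of their symbols (Ndufa, Ndufb, Ndufc, Ndufs and Ndufv with a number, Uqcr, Cox4 to Cox8, Atp5, and Ndufab1, Cyc1 and Cycs) and by a mean of at least 10 normalized reads over the 6 libraries. This gave 77 genes of 41255 listed, and of the 11550 that reached the same mean and were tested. The 77 genes comprised 37 of complex I, 9 of complex III, 1 for cytochrome c, 13 of complex IV and 17 of complex V. Of 86 symbols with these letters, 3 were pseudogenes and were left out, and 6 were below the mean. The measured level thus chose the members, and the lowest inside the limit were Cox6a2 with a mean of 30.7 and Cox7a1 with 32.8, while Ndufa4l2 (4.51) and Cox4i2 (4.45) lay just outside it. Cox6a2 reached the limit through its WT clones, as its R98S mean of 7.50 alone would not have. The label matched the gene annotation with 4 exceptions: Ndufa4 is counted by its symbol with complex I although its protein belongs to complex IV, Atp5sl is annotated as Dmac2, a factor for complex I assembly, Cox7a2l encodes a relative of the Cox7a subunits that takes part in supercomplex assembly, and Atp5s encodes a coupling factor rather than a core subunit of the synthase.

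The respiratory chain passes electrons from NADH through complex I, ubiquinone, complex III and cytochrome c to complex IV, which reduces oxygen, and the protons pumped on the way drive ATP synthesis by complex V. A few subunits of complexes I, III, IV and V are encoded by the mitochondrial genome, so that each complex needs products of both genomes. In lymphoid cells, growth and proliferation draw on this chain for ATP and for the NAD+ and the ubiquinone turnover that biosynthesis requires.

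The source of the polyadenylated RNA was the interleukin-3-dependent mouse lymphoid line Ba/F3. All 6 cultures were monoclonal, carried a knockdown of mouse Rpl10 and were treated with cycloheximide for 5 min before lysis. They differed in the retrovirally delivered human RPL10 cDNA, which was WT in clones 28, 29 and 36 and encoded the leukemia-associated R98S form, with serine for arginine at residue 98, in clones 11, 13 and 35. Each clone gave 1 library of 21786776 to 24204991 reads assigned to genes, so that a difference between the groups is a difference between 3 and 3 clones, each the progeny of 1 cell. The knocked-down gene Rpl10 had 2853, 3156 and 1900 normalized reads in WT and 3028, 1883 and 2617 in the R98S clones, and part of these can come from the human cDNA. Interleukin-3 receptor chains (Il3ra, Csf2rb, Csf2rb2), Ptprc, Cd79a and Cd79b were present. Csf2rb, Csf2rb2 and Cd79b were called higher in R98S clones (ratios 1.44, 1.54 and 2.22, adjusted p = 0.0509, 0.0178 and 0.0617 in limma). Ptprc was called lower (ratio 0.399, adjusted p = 0.00894 in limma), and Il3ra and Cd79a did not pass. In contrast, Ebf1, Pax5, Vpreb1, Igll1, Rag1 and Rag2, which define B-cell precursors, had at most 12 reads in any library. The fibroblast markers had at most 13 reads, and the summed level of 7 mast cell and basophil markers was 25269 to 29818 in WT and 13994 to 17555 in R98S clones. This difference was that of Gata2 alone (ratio 0.553), the only marker of that list called. Cpa3, Mcpt8, Hdc and Ms4a2 had ratios of 2.69, 1.62, 1.06 and 0.692 without passing. Mcpt8 had 0 reads in R98S clone 13, and its log2 fold change was -0.61, opposite to its ratio. Kit and Fcer1a had at most 1 read. The part of these differences in the results was not tested, and in bulk RNA fewer cells of a type and less RNA per cell cannot be told apart.

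To ask whether the R98S mutation goes with a change of the respiratory chain at the mRNA level, the clones were compared gene by gene with limma on log2(normalized read count + 1), with p-values adjusted over all 11550 genes and a threshold of 0.1. Most members differed little. In R98S cells 11 members were upregulated (among them Ndufb6, Ndufs5, Ndufb10, Ndufab1, Ndufb5 and Ndufs1 of complex I, Uqcrh and Uqcrc2 of complex III, Atp5g1 and Atp5e of complex V) and 3 were downregulated (Ndufa6 of complex I, Cox6a2 and Cox7a1 of complex IV), while 63 did not pass the test. The 14 members that passed were 18.2% of the 77, compared with 23.9% of all tested genes. By direction, 10.7% of all tested genes passed as higher and 13.1% as lower in the mutant clones. Of the members, 14.3% passed as higher and 3.9% as lower. No test compared these shares with the background, and the 3 lower members are too few to read a share from. Among them, Cox6a2 passed the filter only through its WT clones. With libraries scaled to the same upper quartile the split was 17 higher and 2 lower. Among the 6 fits that each left out 1 clone, omission of WT clone 28 or of WT clone 29 left 8 members called, and omission of R98S clone 11 left 9.

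The median log2 fold change of the members was 0.086, with 56 members (72.7%) above 0, compared with a median of -0.011 and 49.1% above 0 for all tested genes. The members ranged from -2.93 for Cox6a2 to 0.64 for Ndufb6. A log2 fold change within 0.25 of 0 was found for 52 members (67.5%) and for 47.2% of all tested genes. Values of WT and R98S clones did not overlap for 32 members (41.6%), 25 of them higher and 7 lower in R98S cells. Among all 11550 tested genes 4307 (37.3%) did not overlap, 2092 of them higher and 2215 lower. No test compared these splits. Only 4 of the members that passed the test differed by more than 1.5-fold in the ratio of group means, namely Ndufb6, Ndufs5, Cox6a2 and Cox7a1.

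**Figure D1:**
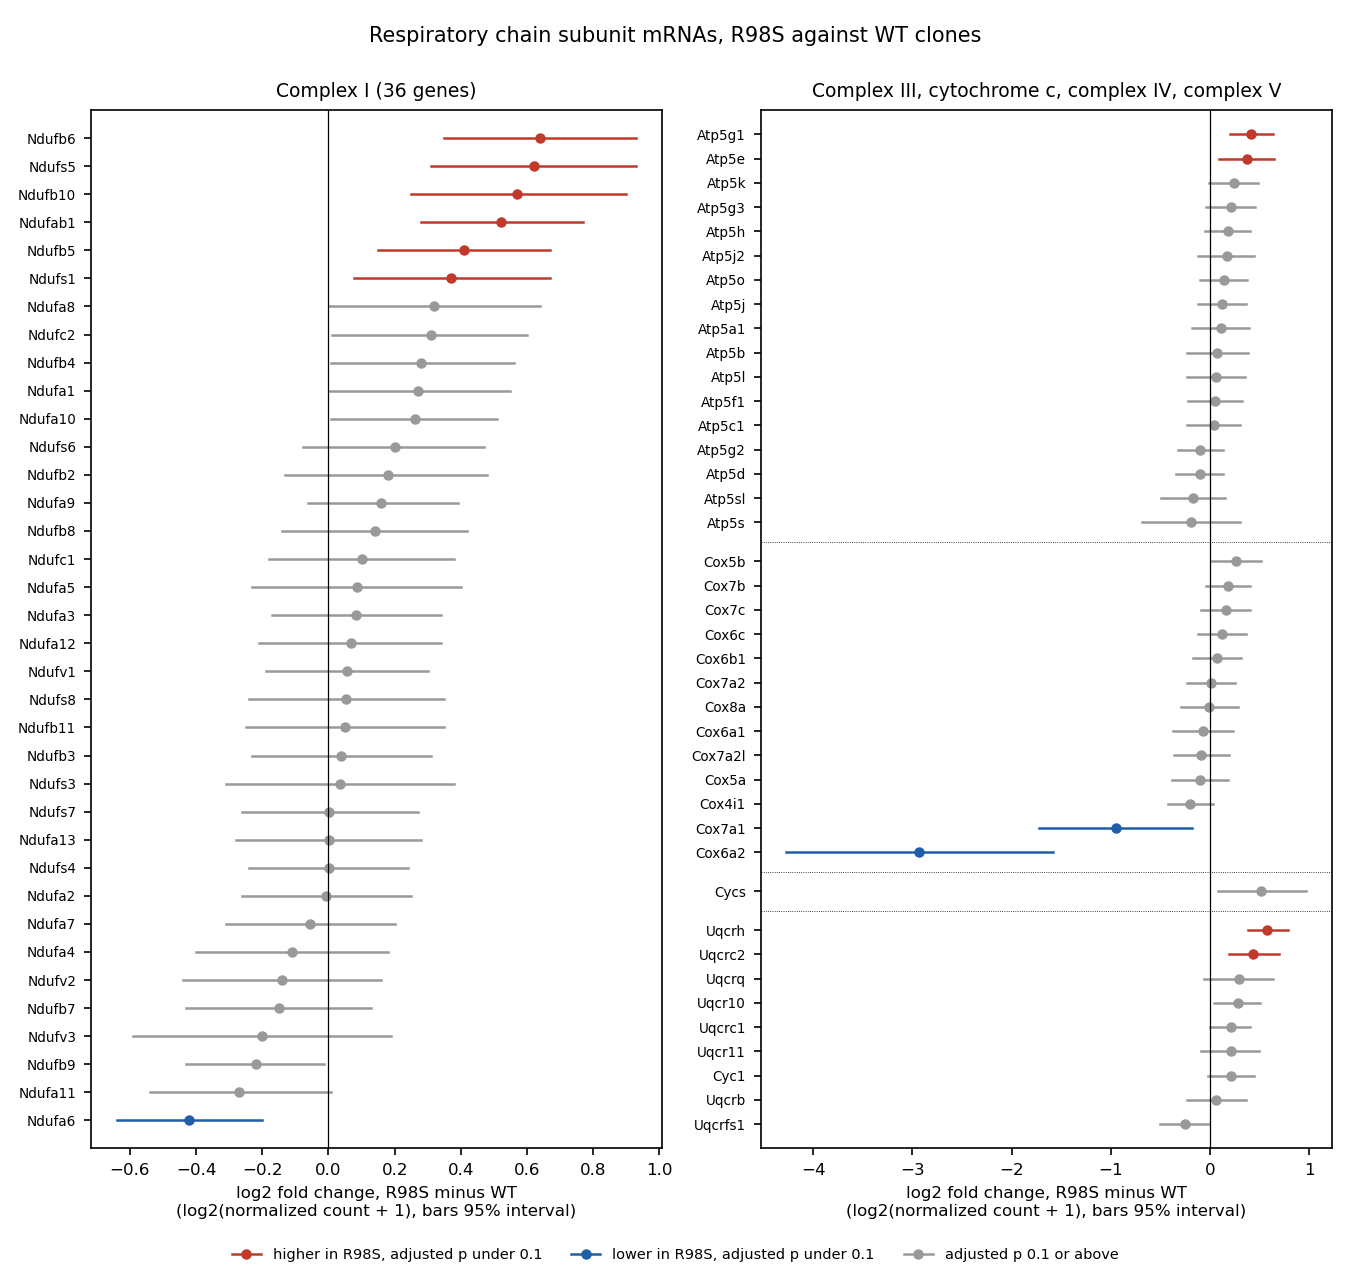
Log2 fold change (R98S minus WT, on log2(normalized count + 1)) of 76 members, with 95% intervals from limma, complex I on the left and the other complexes on the right with its own, wider axis. Red and blue mark the 10 higher and 3 lower members plotted with an adjusted p under 0.1, and most of the grey intervals of the other 63 include 0.

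Members were also more alike between clones than most genes. Their median SD of log2 values between clones of a group was 0.117, compared with 0.202 for all tested genes and 0.159 for the 4808 tested genes with a mean between 1000 and 10000, the range in which the members' median level of 2084 lies. WT clone 36 was the lowest of the WT clones for 58 of the 77 members (75.3%, compared with 43.2% of all tested genes). Relative to each gene's mean over the 6 clones, the median member was at a log2 level of -0.029, -0.014 and -0.13 in WT clones 28, 29 and 36 and at 0.10, -0.012 and 0.096 in R98S clones 11, 13 and 35. R98S clone 13 therefore lay next to WT clones 28 and 29, and WT clone 36 below all others.

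**Figure D2:**
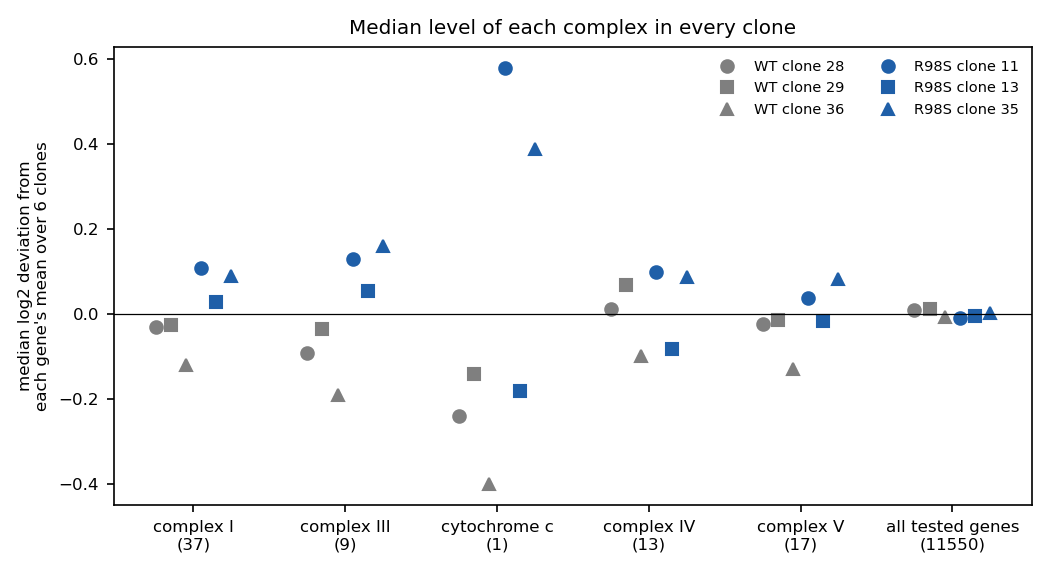
Median log2 deviation from each gene's mean over the 6 clones (vertical axis) for the members of each complex and for all tested genes (horizontal axis, number of genes in parentheses), with 1 symbol per clone, WT in grey and R98S in blue. R98S clones 11 and 35 stood above 0 in every complex, WT clone 36 stood below 0 in every complex, and all tested genes stayed near 0 in all 6 clones.

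Promoter sequences (250 bases before to 50 after the RefSeq start, GRCm38.p6) were found for 62 members. They were searched on both strands for GCGCATGCG, the binding motif of NRF1, for CCGGAAGT, that of ETS factors including GABP, and for AAGATGGCG, that of YY1, which are regulators known for their many targets among respiratory genes. NRF1 letters were present for 9 of these members (14.5%, compared with 1.95% of 27025 genes with a promoter and 4.6% of the tested genes among them). YY1 letters were present for 7 (11.3%, compared with 1.64% and 3.91%) and ETS letters for 5 (8.06%, compared with 4.31% and 10%). None of the motifs is contained in another, and Uqcr11 held both an NRF1 and an ETS motif. Of 10 members with a promoter that passed the test, 1 held any of them, namely Uqcrh. Shown are the promoter of Uqcrh, the member with the smallest adjusted p, that of Cycs, which had the largest difference among members that did not pass, and that of Ndufa6, the downregulated complex I gene, all from RefSeq, on the minus strand and written 5′ to 3′, with motif letters in capitals.
Uqcrh, chr4:116075021-116075320, capitals an ETS motif in reverse complement, beginning 11 bases before the start: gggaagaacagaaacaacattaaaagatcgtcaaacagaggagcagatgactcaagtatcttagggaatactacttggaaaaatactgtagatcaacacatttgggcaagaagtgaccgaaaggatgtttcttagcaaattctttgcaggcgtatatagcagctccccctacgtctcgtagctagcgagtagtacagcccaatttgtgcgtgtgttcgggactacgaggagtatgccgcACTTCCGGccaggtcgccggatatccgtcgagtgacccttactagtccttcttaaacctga
Cycs, chr6:50566520-50566819, capitals an NRF1 motif in reverse complement, beginning 61 bases before the start: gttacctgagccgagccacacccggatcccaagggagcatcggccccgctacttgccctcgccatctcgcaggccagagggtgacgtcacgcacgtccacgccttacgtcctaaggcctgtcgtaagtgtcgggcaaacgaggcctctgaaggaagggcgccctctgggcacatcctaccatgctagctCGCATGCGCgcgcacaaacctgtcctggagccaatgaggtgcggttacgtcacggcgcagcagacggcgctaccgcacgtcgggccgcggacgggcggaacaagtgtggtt
Ndufa6, chr15:82354242-82354541, no motif: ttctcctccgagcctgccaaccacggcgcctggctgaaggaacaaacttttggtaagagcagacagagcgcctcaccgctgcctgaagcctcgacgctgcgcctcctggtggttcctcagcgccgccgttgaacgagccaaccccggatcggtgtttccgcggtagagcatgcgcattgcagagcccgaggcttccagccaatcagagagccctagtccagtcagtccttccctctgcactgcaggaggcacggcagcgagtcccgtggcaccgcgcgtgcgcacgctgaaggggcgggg
A match describes the letters only. Uqcrh, with an ETS motif, and Ndufa6, with none, passed in opposite directions. With a motif in only 1 of the 10 called members with a promoter, no link to direction can be read from this. None was tested.

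Complex I, the NADH dehydrogenase, had 37 members, of which 7 were called higher and 1 lower (21.6%, compared with 23.9% of all tested genes), with a median log2 fold change of 0.082 and 28 members above 0. Without R98S clone 13 this median was 0.14. Ndufs1 (chromosome 1, 63143596 to 63176833, minus strand), the large iron-sulfur subunit of the electron input module, had 3556, 3624 and 3124 normalized reads in WT cells (in the order of clones 28, 29 and 36, here and for all genes) and 5087, 4485 and 3838 in R98S cells (in the order of clones 11, 13 and 35). Its log2 fold change was 0.37 (SE of 0.13, adjusted p = 0.0878 in limma). Every R98S clone exceeded every WT clone, with the smallest gap in R98S clone 35. The call was near the threshold and was lost in all single-clone fits except that without R98S clone 35, the limma adjusted p being 0.186, 0.154 and 0.186 when WT clones 28, 29 and 36 were omitted in turn, and 0.230 and 0.129 when R98S clones 11 and 13 were. It was also lost with no expression filter (0.145) and with no intensity trend (0.144).

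The largest rises of complex I were in accessory subunits of the membrane arm. Ndufb6 (chromosome 4, 40270591 to 40279421, minus strand) had 623.6, 654.5 and 567.4 normalized reads in WT and 960.7, 870.6 and 1040 in R98S clones, 1.56 times as much by the means, with a log2 fold change of 0.64 (SE of 0.13, adjusted p = 0.0167 in limma). Ndufs5 (chromosome 4, 123712710 to 123718202, minus strand), a subunit on the side of the intermembrane space, had 613.4, 641.6 and 556.4 in WT and 825.6, 927.7 and 1045 in R98S clones (log2 fold change 0.62 with an SE of 0.13, adjusted p = 0.0216 in limma). The groups were well apart for both. Ndufb10 (chromosome 17, 24722060 to 24724478, minus strand), which faces the same space, went from 1194, 1002 and 1077 to 1929, 1503 and 1459 (log2 fold change 0.57 with an SE of 0.14, adjusted p = 0.0323 in limma), the highest value being that of R98S clone 11. Without WT clone 29 its adjusted p was 0.110. Ndufb5 (chromosome 3, 32736990 to 32751566, plus strand) went from 1817, 1869 and 1679 to 2650, 2295 and 2193 (log2 fold change 0.41 with an SE of 0.11, adjusted p = 0.0457 in limma), and lost its call without WT clone 28 (0.139), WT clone 29 (0.104) or R98S clone 11 (0.126).

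Ndufab1 and Ndufa6, whose proteins touch in the assembled complex, went in opposite directions. Ndufab1 (chromosome 7, 122085403 to 122101886, minus strand) encodes the mitochondrial acyl carrier protein, which also serves fatty acid synthesis. It had 1118, 1071 and 1033 normalized reads in WT and 1618, 1432 and 1577 in R98S clones (log2 fold change 0.52 with an SE of 0.11, adjusted p = 0.0183 in limma). Ndufa6 (chromosome 15, 82350140 to 82354322, minus strand) encodes the accessory subunit that binds this carrier on the matrix arm, and had 3846, 3773 and 4078 in WT and 2772, 3067 and 2906 in R98S clones (log2 fold change -0.42 with an SE of 0.10, adjusted p = 0.0253 in limma). Both genes showed a clear gap between the groups. The adjusted p of Ndufa6 was 0.1 without WT clone 28, at the threshold itself, and in the other single-clone fits it stayed below it. Among the 29 complex I members that did not pass, log2 fold changes lay within 0.32 of 0.

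Complex III, which moves electrons from ubiquinol to cytochrome c, had 2 of 9 members called higher and none lower. This was 22.2%, compared with 23.9% of all tested genes called and 10.7% called higher. The median log2 fold change was 0.21, with 8 members above 0. Uqcrh (chromosome 4, 116066965 to 116075071, minus strand), the acidic hinge protein at the docking site of cytochrome c, had the smallest adjusted p of all members. It had 5103, 5179 and 5118 normalized reads in WT and 7941, 7444 and 7685 in the R98S clones, 1.5 times as much by the means, with a log2 fold change of 0.58 (SE of 0.089, adjusted p = 0.0068 in limma). The WT clones lay close together, far below the lowest R98S clone. Uqcrc2 (chromosome 7, 120635176 to 120659524, plus strand), a core protein of the matrix side, had 6491, 6209 and 5395 in WT and 8624, 7533 and 8415 in R98S clones (log2 fold change 0.44 with an SE of 0.11, adjusted p = 0.0350 in limma), and an adjusted p of 0.109 without R98S clone 11. The Rieske iron-sulfur subunit Uqcrfs1 was the only member of the complex below 0, with 3965, 3854 and 3290 in WT and 3005, 3206 and 3099 in R98S clones. Its clones did not overlap, but the log2 fold change of -0.25 (95% interval -0.50 to -0.0043) did not pass (adjusted p = 0.152 in limma), except without WT clone 36 (-0.33, adjusted p = 0.0763 in limma). Cyc1, Uqcrc1 and Uqcr11 each had a log2 fold change of 0.21 and adjusted p of 0.154 to 0.307 in limma. Uqcr10 was at 0.28 without overlap (adjusted p = 0.108 in limma), Uqcrq at 0.29 (0.232) and Uqcrb at 0.066 (0.76). The count tests passed Uqcr10 (adjusted p = 0.0934 in edgeR and 0.0746 in DESeq2), and DESeq2 passed Uqcrc1 (adjusted p = 0.0915).

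Cycs (chromosome 6, 50562563 to 50566538, minus strand), which encodes the electron carrier cytochrome c that also triggers caspase activation once released, depended on 1 clone. It had 1241, 1337 and 1112 normalized reads in WT and 2201, 1295 and 1923 in R98S clones 11, 13 and 35. R98S clone 13 lay inside the WT range while the others were 1.79 and 1.56 times the WT mean. The log2 fold change of 0.52 (SE of 0.19, 95% interval 0.078 to 0.97) missed the threshold (adjusted p = 0.107 in limma), and without R98S clone 13 it was 0.75 (adjusted p = 0.0139 in limma). Both count tests passed it (adjusted p = 0.0824 in edgeR and 0.0323 in DESeq2).

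The mitochondrially encoded mRNAs that rose were likewise lowest in clone 13 among the R98S clones. Of 13 such genes 10 were tested and 5 were called higher (mt-Nd2, mt-Nd4, mt-Nd5, mt-Cytb and mt-Atp8), none lower, compared with 10.7% and 13.1% of all tested genes. Their median log2 fold change was 0.71. The levels were very uneven: mt-Nd4l, mt-Co2 and mt-Co3 were below a mean of 10. Tested mt-Atp6 and mt-Nd3 had means of 19.44 and 19.65, against 12830 for mt-Atp8 and 139111 for mt-Co1. Reads of these genes may therefore be incompletely counted, which leaves the count and the median uncertain. The reason was not tested. Relative to the WT mean, R98S clones 11, 13 and 35 were at 3.31, 1.19 and 2.55 for mt-Nd2, which encodes a proton-pumping complex I subunit. The corresponding ratios were 1.97, 1.38 and 1.68 for mt-Cytb of complex III and 1.03, 0.851 and 0.788 for mt-Co1 of complex IV.

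Complex IV, cytochrome c oxidase, had 13 members, none called higher and 2 called lower, with a median log2 fold change of -0.0045. The 2 were 15.4%, compared with 23.9% of all tested genes called and 13.1% called lower. The called genes encode the isoforms typical of heart and skeletal muscle. Cox6a2 (chromosome 7, 128205435 to 128206387, minus strand) had 61.44, 64.48 and 36.03 normalized reads in WT and 6.568, 2.041 and 13.88 in R98S clones. The ratio of means was 0.139 and the log2 fold change -2.93 (SE of 0.59, adjusted p = 0.0170 in limma). Its R98S clones held only 2 to 15 reads, 1 of them below the floor of 3 reads, so the ratio is imprecise. No R98S clone came near the lowest WT clone. However, Cox6a2 passed the filter only through its WT clones (WT mean 53.98, R98S mean 7.495). At that R98S level it could be tested only as a lower gene, so its call is no support for a direction. Cox7a1 (chromosome 7, 30184144 to 30186078, plus strand) had 57.35, 34.39 and 39.03 in WT and 19.7, 28.58 and 17.58 in R98S clones (ratio 0.504, log2 fold change -0.95 with an SE of 0.33, adjusted p = 0.0921 in limma). The groups did not overlap, but the call was lost with DESeq2 (adjusted p = 0.168), with no expression filter (0.187), with upper quartile scaling (0.106) and in every fit without 1 clone except that without R98S clone 13, with limma adjusted p of 0.295 without WT clone 28, 0.140 without WT clone 29, 0.130 without WT clone 36 and 0.205 without either R98S clone 11 or R98S clone 35.

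Both muscle isoforms were a small part of their families. Per kb of transcript, Cox6a2 made up 1.49%, 1.46% and 1.04% of the Cox6a mRNA in WT and 0.172%, 0.0618% and 0.334% in R98S clones, the rest being the ubiquitous Cox6a1. Cox7a1 made up 1.15%, 0.661% and 0.814% of the Cox7a mRNA in WT and 0.373%, 0.596% and 0.387% in R98S clones. Cox6a1 itself had a log2 fold change of -0.071 (95% interval -0.37 to 0.23) and Cox7a2 one of 0.011 (-0.23 to 0.25), and for both the groups overlapped. Cox7a2l was at -0.085 (-0.36 to 0.19). The other alternative isoforms were barely detected: Cox4i2 had at most 10.21 normalized reads in any library, Cox6b2 at most 5.004, Cox8b 1.85 and Cox8c 1.024. Ndufa4l2, the relative of Ndufa4, reached 7.168.

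Without the muscle isoforms, the 11 other members of complex IV had no call in limma, edgeR or DESeq2 (1 of them, Cox5b, had an unadjusted p under 0.05), and their log2 fold changes had a median of 0.011 and ran from -0.20 to 0.26. Cox4i1, the regulatory subunit that binds adenine nucleotides, had 8654, 8749 and 7901 normalized reads in WT and 7115, 7722 and 7247 in R98S clones. These did not overlap, at a log2 fold change of -0.20 (95% interval -0.42 to 0.027, adjusted p = 0.206 in limma). Cox5b, a peripheral subunit that binds zinc, had 3220, 3250 and 3115 in WT and 4194, 3992 and 3364 in R98S clones, without overlap and with the highest log2 fold change of the complex, 0.26 (0.0074 to 0.52, adjusted p = 0.148 in limma). It passed only without R98S clone 35 (0.36, adjusted p = 0.0721 in limma). Its partner Cox5a was at -0.10 (-0.38 to 0.18) and Cox6b1 at 0.069 (-0.17 to 0.31). Cox8a, the most abundant mRNA of the complex per kb, had 6140, 7065 and 5926 in WT and 5921, 5925 and 7258 in R98S clones, which overlapped fully, and its log2 fold change was -0.0045 (-0.29 to 0.28). Ndufa4 had a log2 fold change of -0.11 (-0.40 to 0.18).

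**Figure D3:**
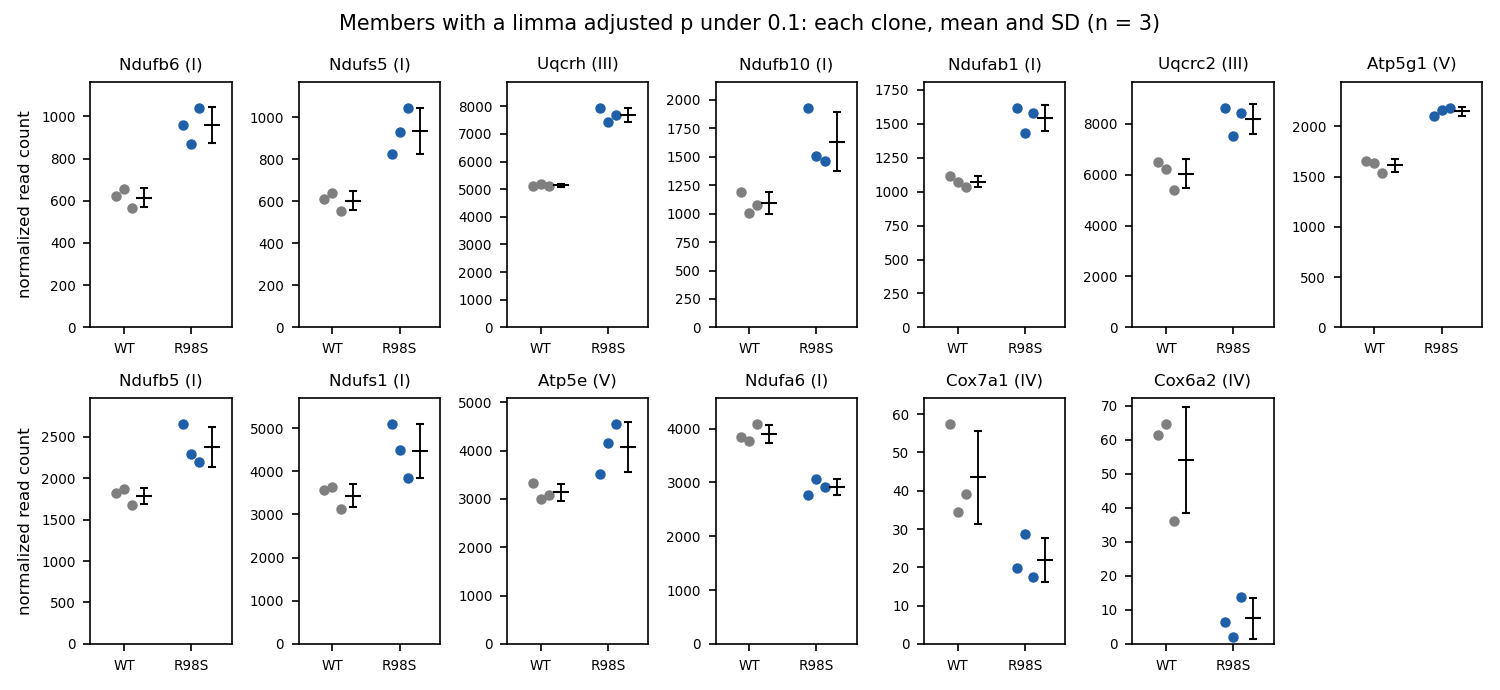
Normalized read counts (vertical axes from 0, 1 scale per gene) of 13 members with a limma adjusted p under 0.1, WT clones 28, 29 and 36 in grey and R98S clones 11, 13 and 35 in blue, from left to right, with the group mean and SD (n = 3) in black. In each panel the 3 R98S clones lie on one side of the 3 WT clones, above them for 10 genes and below them for Ndufa6, Cox7a1 and Cox6a2.

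Complex V, the ATP synthase, had 2 of 17 members called higher and none lower. This was 11.8%, near the 10.7% of all tested genes called higher, with 23.9% called in either direction. The median log2 fold change was 0.11, with 13 members above 0. The median was 0.036 without WT clone 36 and 0.072 without R98S clone 11. Atp5g1, Atp5g2 and Atp5g3 encode the same mature c subunit of the rotating ring behind different targeting sequences. Atp5g1 (chromosome 11, 96068852 to 96075670, minus strand) had 1658, 1639 and 1539 normalized reads in WT and 2102, 2165 and 2185 in R98S clones (ratio 1.33, log2 fold change 0.42 with an SE of 0.10, adjusted p = 0.0262 in limma), with narrow groups and a wide gap. Atp5g3 was at 0.21 (95% interval -0.043 to 0.46, adjusted p = 0.230 in limma) and Atp5g2 at -0.098 (-0.32 to 0.13, adjusted p = 0.531 in limma). Per kb, Atp5g1 supplied 17.5%, 17.8% and 17.3% of the c subunit mRNA in WT and 21.9%, 19.8% and 22.1% in R98S clones, and Atp5g2 supplied 39.4%, 38.2% and 40.8% in WT and 33.1%, 33.1% and 34.3% in R98S clones. Neither share overlapped between the groups. These genes have near-identical copies: 100% of the 50-base words of the Atp5g2 transcript and 66.0% of those of Atp5g1 occur in other annotated genes, so reads lost to the mapping filter leave their levels uncertain.

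Atp5e (chromosome 2, 174461072 to 174464105, minus strand), the epsilon subunit of the central stalk, had 3327, 2988 and 3086 normalized reads in WT and 3517, 4161 and 4541 in R98S clones (log2 fold change 0.37 with an SE of 0.12, adjusted p = 0.0733 in limma). The gap was narrow, with R98S clone 11 just above the highest WT clone. Its call held only without R98S clone 11 among the single-clone fits, and its adjusted p was 0.148, 0.207 and 0.130 without WT clones 28, 29 and 36, 0.114 without R98S clone 13 and 0.177 without R98S clone 35. With no expression filter it was 0.127 and with no intensity trend 0.124. Atp5b, the catalytic beta subunit and the most abundant member per kb, had 31659, 32151 and 25637 in WT and 31419, 28706 and 33683 in R98S clones. The groups overlapped, and the log2 fold change was 0.073 (95% interval -0.23 to 0.38, adjusted p = 0.742 in limma). The lowest fold change in this group was that of the coupling factor Atp5s, at -0.19 (-0.68 to 0.30).

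The members' levels spanned a wide range within each complex. Per kb of transcript, mean levels ran from 785 (Ndufb4) to 11473 normalized reads (Ndufa4) in complex I, from 2237 (Cyc1) to 11722 (Uqcrh) in complex III, from 45 (Cox6a2) to 11586 (Cox8a) in complex IV and from 97 (Atp5s) to 15941 (Atp5b) in complex V, while Cycs had 486. The mRNAs were short, with a median transcript length of 758 bases compared with 2720 for all tested genes, and had a similar GC content (52.1% and 50.4%). Adjusting each library for GC content and length left 14 members called, 13 of them the same genes, with Atp5e replaced by Cycs.

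Several of the upregulated members lay in chromosomal stretches whose genes were higher as a whole. All 3 members on chromosome 4 (Ndufb6, Ndufs5 and Uqcrh) were called higher, on a chromosome where 23.2% of 741 tested genes were called higher (10.7% of all tested genes) and the median log2 fold change was 0.15. The 30 nearest tested genes had a median of 0.42 around Ndufb6, 0.44 around Uqcrh, 0.36 around Ndufab1, 0.34 around Uqcrc2 and 0.31 around Ndufs1, but 0.00021 around Ndufs5. Uqcrc2 and Ndufab1 lie close together on chromosome 7 (starting at 120635176 and 122085403), so their neighbours may be partly the same genes. Around the 11 upregulated members the middle value of these medians was 0.18, compared with -0.044 around the 63 members not called. For 90% of all tested genes the neighbours' median lay between -0.27 and 0.29.

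Removing the median of the 30 neighbours from each gene in each library lowered Uqcrh to a log2 fold change of 0.17 (adjusted p = 0.221 in limma), Ndufb6 to 0.24 (0.169), Ndufab1 to 0.15 (0.296), Uqcrc2 to 0.11 (0.439) and Ndufs1 to 0.076 (0.541). The calls of Atp5g1 (0.27, adjusted p = 0.123 in limma), Atp5e (0.22, 0.173) and Cox7a1 (-0.89, 0.119) were lost as well. Ndufs5 (0.60, adjusted p = 0.0142 in limma), Ndufb10 (0.39, 0.0591), Ndufb5 (0.28, 0.0688), Ndufa6 (-0.39, 0.0277) and Cox6a2 (-3.34, 0.0112) were still called, and Cycs was at 0.68 (0.05). In all, 20 members were then called, 17 higher and 3 lower (26.0%, compared with 25% of all tested genes), of which 5 were among the 14. The origin of the shifts along chromosomes was not tested.

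**Figure D4:**
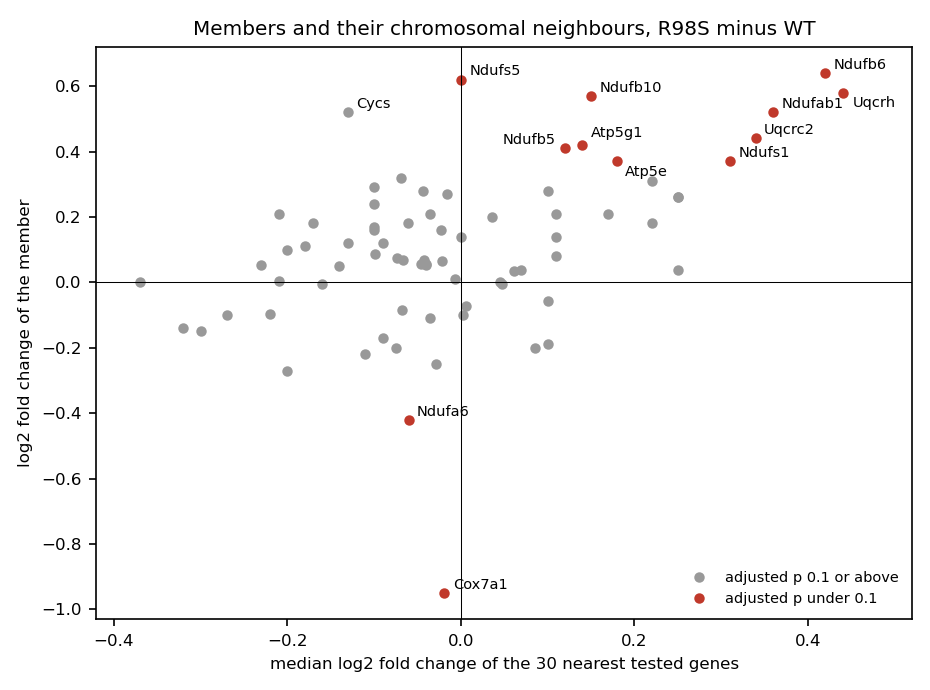
Log2 fold change (R98S minus WT) of 75 members against the median log2 fold change of its 30 nearest tested genes on the chromosome, Cox6a2 not being drawn, which lies off the scale at -2.93 with a neighbours' median of 0.39. Uqcrh, Ndufb6, Ndufab1, Uqcrc2 and Ndufs1 sit at the right, where neighbours were higher by 0.31 to 0.44, and Ndufs5 and Cycs sit high with neighbours at 0.00021 and -0.13.

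Genes that serve the chain without belonging to it were compared in the same fit. Of the 4 subunits of complex II, which feeds electrons from succinate, 1 was called higher, Sdhc (log2 fold change 0.37, adjusted p = 0.0466 in limma), and the median was 0.043. Of 42 tested assembly factors, 7 were called higher and 1 lower (16.7% and 2.38%, 19% in all), with a median of 0.26. These 42 include Atpif1, which encodes the inhibitor of complex V rather than an assembly factor (-0.15, not called). The shares of all tested genes were 10.7%, 13.1% and 23.9%, and no test compared them. The called factors of complex I were Ndufaf4 (1.08, adjusted p = 0.0189 in limma), Ndufaf6 (0.92, 0.0165) and Ecsit (0.54, 0.0285). For complex IV they were Taco1 (0.75, 0.0136), Coa7 (0.68, 0.0718), Coa3 and Coa5 (both 0.48, 0.0360 and 0.0333). Cox17, the chaperone that hands copper to complex IV, was lower (-0.54, 0.0629). The 30 nearest tested genes had medians of 0.19 around Ndufaf4, 0.31 around Ndufaf6 and 0.19 around Coa7, all on chromosome 4. Their medians were 0.26 around Coa5, 0.09 around Coa3, 0.031 around Taco1 and -0.15 around Ecsit. Ndufaf4 had 933.9, 975.8 and 992.8 normalized reads in WT and 2593, 1375 and 2379 in R98S clones, again lowest in R98S clone 13. Of other proteins that pass electrons to ubiquinone, Etfb (0.36, adjusted p = 0.0485 in limma) and Dhodh (0.48, 0.0468) were called higher among 5. None of 12 tested regulators of mitochondrial biogenesis, among them Nrf1, Gabpa, Yy1 and Tfam, was called by limma or edgeR, although 2 (Gabpa and Pprc1) had an unadjusted p under 0.05 and DESeq2 called 1. Their median was 0.12.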

How the data were processed

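Total mRNA of 6 Ba/F3 clones (3 WT, 3 R98S, grouped by their labels) was analysed. Cells had been treated with cycloheximide (100 µg/ml, 5 min), and polyadenylated RNA was sequenced as strand-specific libraries. The authors filtered the reads with Bowtie2 against ribosomal and transfer RNA, aligned the rest to mm10 with TopHat and counted reads per gene, and HTSeq and SAMtools are also among the tools named in the submitters' processing notes. Whether the counting used strand and which annotation it used are not given in the sources used here. Deposited by the authors was a signal per gene, made of read counts divided by the DESeq2 size factor of each library. All values were whole multiples (within 0.001) of the worth of 1 read in each library, which gave back 21786776 to 24204991 reads per library. At this depth the spread between clones was a median of 3.89 times the counting error of a member, under 2 times for 8 members and at or below it for 1, Ndufb9.

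Differences were tested with limma 3.58.1 in R 4.3.3 (two-sided, with an intensity trend) on log2(normalized count + 1), for the 11550 genes with a mean of at least 10, with Benjamini-Hochberg adjustment and a threshold of 0.1. Fold changes on this scale understate those of low genes. The scripts were tested on simulated data. As nothing ties a clone to more than 1 culture, p-values measure the spread between these clones. Alternatives were pseudocounts of 0.5 and 5, no filter or one at a mean of 50, libraries set to one total or one upper quartile, no trend, a threshold of 0.05, edgeR 4.0.16 (quasi-likelihood) and DESeq2 1.42.0 on recovered reads, a loess adjustment (span 0.3) for GC content and length, and leaving out each clone. Removal of the median of the 30 nearest tested genes was added after the data were seen. Gene positions, lengths and overlaps are from GENCODE M21 (GRCm38), and all 77 members were found, 76 under the same symbol. Levels per kb use 1 principal transcript per gene.

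Values per clone are given for members with an adjusted p under 0.1, the highest and lowest fold change and the highest level per kb in each complex, the tissue isoform families, and Rpl10. For some of these the range or the interval is printed instead. The counts include 1 upregulated member that is not reported here. Of related lists, genes with an adjusted p under 0.1 are named. Other named members (Cyc1, Uqcrc1, Uqcr10, Uqcr11, Uqcrq, Uqcrb, Ndufb4) and the ratios of mt-Co1 were chosen after their values were seen. The same holds for the mean levels of mitochondrially encoded mRNAs. The members and lists were chosen with earlier results of these data known, so no count over them is independent support. T cell and erythroid marker lists, examined alongside, had summed levels of 13.97 to 65.05 and 1940 to 3515 in WT and 46.95 to 92.88 and 1975 to 3599 in R98S clones. These sums hide 1 called marker in each list. In R98S clones Cd3d was higher (ratio 4.78, adjusted p = 0.0112 in limma) and Hba-a1 lower (ratio 0.0657, adjusted p = 0.0389 in limma). Hba-a1 had 29.7, 8.597 and 69.05 normalized reads in WT and 0, 6.124 and 0.9252 in R98S clones. It passed the filter only through its WT clones. At that R98S level it could be tested only as a lower gene, so its call is no support for a direction. Cd3g had 43.03 normalized reads in WT clone 36, and 3.072 and 3.224 in WT clones 28 and 29.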

Additional observations from a re-analysis of the deposited data

How the results depend on the processing

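No paired analysis was possible because no clone number of one group recurs in the other. The number of members called (14) was within 1.5 times of this under every alternative except single-clone omissions, which gave 8 to 15 (8 without WT clone 28 and 8 without WT clone 29, 9 without R98S clone 11), with 6 to 12 higher and 1 to 3 lower. Members called higher rose from 11 to 17 with upper quartile scaling and with the regional shift removed, a setting chosen after seeing the data, and the calls lower fell from 3 to 1 at a minimum mean of 50, where Cox6a2 and Cox7a1 were not tested. Over all genes, 2755 were called at the threshold of 0.1 and 1722 at 0.05. At 0.1, omission of 1 clone gave 1322 to 3213, lowest without WT clone 28 and highest without R98S clone 13. The count was also 1457 without WT clone 29 and 1560 without R98S clone 11. edgeR called 16 members, all 14 among them, and DESeq2 16, of which 13 were among the 14 and Cox7a1 was not.

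The median of complex I (0.082) was 0.15 and that of complex V (0.11) was 0.17 with the regional shift removed. Without 1 clone complex I ranged from 0.059 to 0.14 (highest without R98S clone 13) and complex V from 0.036 (without WT clone 36) to 0.15. The cause was not tested.

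Of 508 comparisons of 30 named genes with an alternative, 430 kept direction and call, 46 lost the call, 9 gained one and 23 reversed, none of the latter for a called member. With the regional shift removed Cox5b was at -0.0037, Cox8a at 0.098, Cox7a2 at -0.016, Atp5g2 at 0.13 and Rpl10 at 0.035. Cox8a was also at 0.016 (same total), 0.036 (upper quartile), 0.013 (edgeR) and 0.0076 (DESeq2), and Cox7a2 at -0.018 after the GC and length adjustment. Single-clone omissions turned the sign of Ndufa4 (-0.18 to 0.0047), Cox8a (-0.10 to 0.071), Atp5b (-0.032 to 0.13), Cox6a1 (-0.17 to 0.018), Cox7a2 (-0.039 to 0.065), Cox7a2l (-0.16 to 0.025) and Rpl10 (-0.29 to 0.13).

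Reads of opposite strands may be mixed for 26 members that share exon bases with a gene on the other strand, among them Ndufab1, Ndufb5, Ndufb6, Ndufs1, Uqcrc2 and Cox6a2, and 14 members, among them Atp5g1, Ndufs5 and Ndufab1, share over 25% of their 50-base words with other genes. Counting error is a large part of the spread for 8 members, among them Atp5g1 and Cox7a1, and few reads limit Cox6a2 and the isoforms below a mean of 10.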
